A study of Bos taurus with 30 samples.

Results

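The 10 genes of bone morphogenetic protein (BMP) signaling described here in day 15 bovine embryos are the ligands BMP2, BMP4 and BMP7, the extracellular modulator BMPER, and the transcriptional targets ID1, ID2, ID3, ID4, MSX1 and MSX2. They were taken by symbol, through the Entrez gene ID of each line of the count table, and all 10 were found among its 35092 IDs. The study compared embryos produced in vitro (IVP) with embryos conceived in vivo (IVV), separately in the embryonic disc (ED), which gives rise to the fetus, and in the extra-embryonic membranes (EEM), which contribute to the placenta. Poly(A)-selected RNA was sequenced from 7 IVP and 9 IVV pieces of ED and from 6 IVP and 8 IVV pieces of EEM, which came from 8 IVP and 9 IVV embryos. Both tissues were sequenced in 13 of them, 5 IVP and 8 IVV.

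All embryos were Holstein and had the same sire. IVP embryos came from slaughterhouse oocytes matured, fertilized and cultured in serum-free medium until transfer to a pair of recipient cows on day 7, whereas IVV embryos were conceived by artificial insemination of a pair of superovulated donors. Both were flushed from the uterus on day 15 and cut by hand into the ED and pieces of EEM. Embryos of a group therefore shared a uterus, and IVV embryos shared dams. The procedure cannot be told apart from the cows, since recipients and donors were different animals. The labels do not tie an embryo to a cow, and the tests below measure the spread between embryos. The sex and the morphology of single embryos were not given by the labels either. In the paper, IVP embryos were on average shorter than IVV embryos, and an ED was found in a smaller share of those recovered. Embryos without an ED were discarded. Neither length nor stage was a term in the tests below, so a difference in stage cannot be told apart from the procedure.

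BMP ligands are secreted dimers that bind type I and type II serine/threonine kinase receptors, which phosphorylate SMAD1, SMAD5 and SMAD9. These move with SMAD4 to the nucleus, where the ID genes, MSX1, MSX2 and the inhibitory SMAD6 and SMAD7 are among the classical direct targets. In the mammalian gastrula, BMP4 from extra-embryonic ectoderm or amnion acts on the epiblast, and BMP signaling takes part in the specification of mesoderm, amnion and primordial germ cells.

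The libraries held between 48713218 and 63037371 counts assigned to genes. The tissue labels were met by the pluripotency gene POU5F1, which was at 16.5 to 227 CPM (counts scaled to the library total) in the ED and at most 2.43 CPM in the EEM, and by NANOG, at 2.75 CPM or more in the ED and at most 0.195 CPM in the EEM. Of the other epiblast markers listed, DNMT3B (79.9 to 482 CPM in the ED and 45.3 to 157 CPM in the EEM) and LIN28B (2.8 to 11.6 and 0.64 to 4.7 CPM) overlapped between the tissues. SOX2 and UTF1 had no count in any library. TBXT, which marks the primitive streak, had no count in any EEM library, nor in the ED of IVPF13 and IVPF15. Trophoblast markers were abundant in both tissues (10 genes, summed level 3870 to 24500 CPM in the ED and 5480 to 32700 CPM in the EEM), so a piece of ED was not free of trophoblast RNA. In such bulk pieces, fewer cells of one type and less RNA per cell cannot be told apart.

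ID3, a target of the same family as ID1, had no count in any of the 30 libraries. The pluripotency gene SOX2, too, was listed at 0 throughout, and 2413 of 20847 protein-coding IDs were at 0 in every library. A 0 of this kind is therefore given only as listed, and nothing was computed for ID3. The other 9 genes had counts in all 4 groups and are described below in their order in the pathway. Levels are in CPM after normalization for library composition and were tested only within a gene. Transcript lengths were not used, so levels of different genes are not comparable, and their order served only to pick which receptors and antagonists to name.

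**Figure D1:**
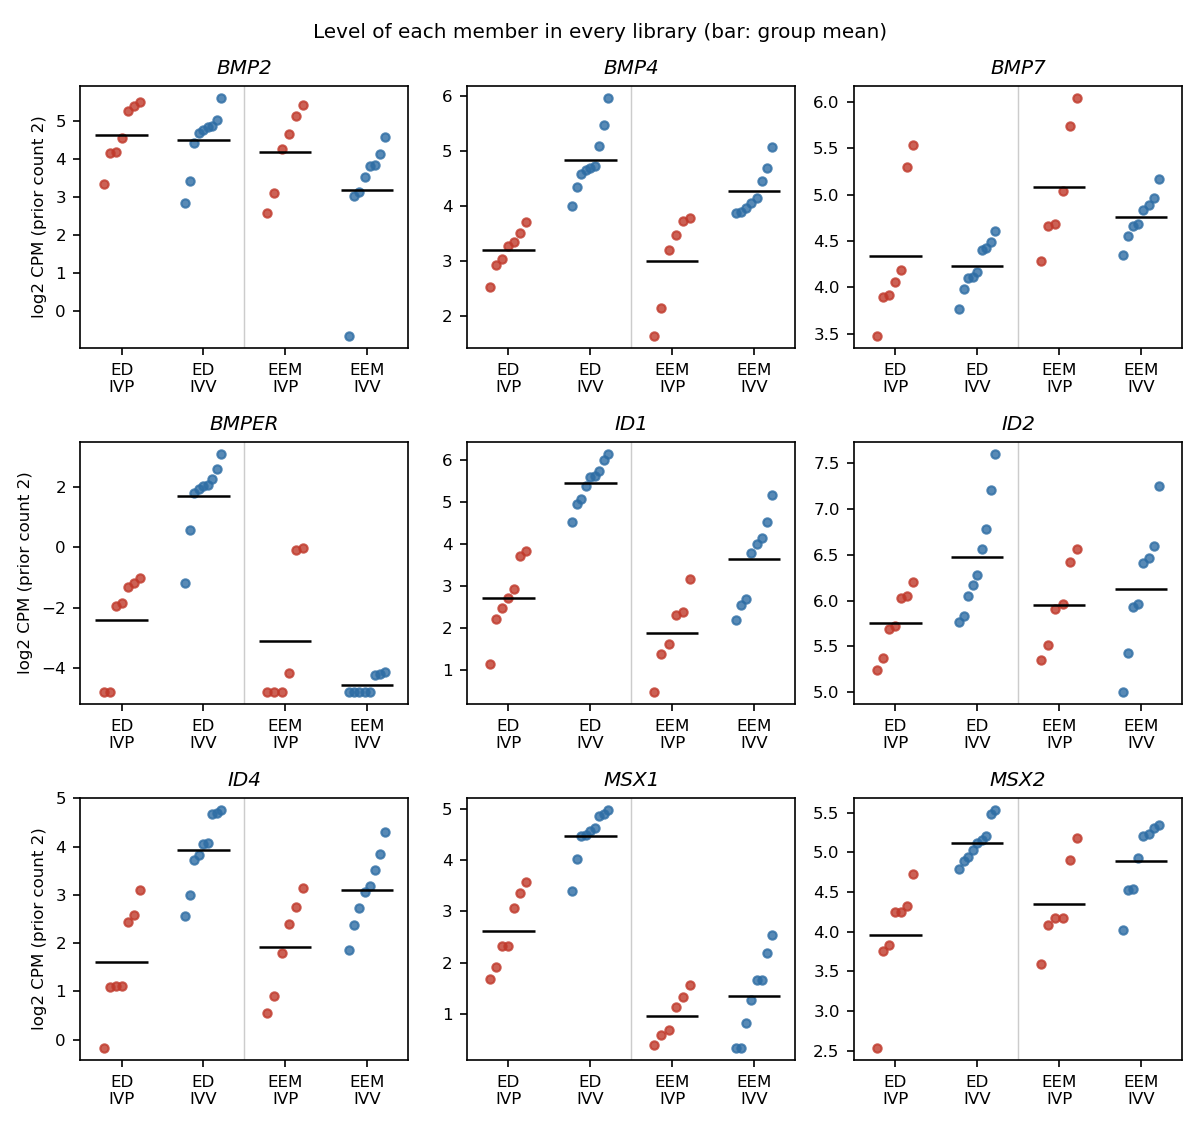
Level of each gene in every library, on the log2 CPM scale (prior count 2), by tissue and procedure. Each point is 1 library (7 ED IVP, 9 ED IVV, 6 EEM IVP and 8 EEM IVV), the bar is the group mean, and ID3 is not drawn. The IVP points lie below all IVV points for BMP4, ID1 and MSX2 in the ED and for BMP4 in the EEM.

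In the ED, 6 of the 9 genes tested were lower in IVP than in IVV embryos and none was higher: BMP4, BMPER, ID1, ID4, MSX1 and MSX2. Among all genes tested in the ED, 4.67% were lower, 1.26% were higher and 5.93% were called in either direction (edgeR's quasi-likelihood test with 1 surrogate variable for variation that the labels do not name, adjusted p under 0.05). The median log2 fold change of the 9 genes was -1.72, beside -0.01 over all genes tested. The genes were chosen with earlier results of these data known, so these shares describe them and are no test of the pathway. BMP2, BMP7 and ID2 did not pass the test.

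Among the ligands, BMP4 was at 5.74 to 13.01 CPM (median 9.68) in the ED of IVP embryos and at 15.9 to 62.1 CPM (median 25.8) in the ED of IVV embryos. The highest IVP library was below the lowest IVV library, a separation that 0.718% of all genes showed in this direction. BMP4 was 3.29-fold lower in IVP ED (log2 fold change -1.72, SE 0.27, adjusted p = 0.000394).

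BMP2 and BMP7 gave no such difference in the ED. BMP2 was at 10.2 to 45.6 CPM (median 23.7) in IVP and at 7.11 to 49.1 CPM (median 27.5) in IVV, with a log2 fold change of 0.10 (SE 0.34, adjusted p = 0.939). BMP7, which can pair with either of the other ligands, was at 11.1 to 46.5 CPM (median 16.7) and 13.6 to 24.4 CPM (median 17.9), with a log2 fold change of 0.17 (SE 0.28, adjusted p = 0.842). For both, the IVP and IVV ranges overlapped, and for BMP7 2 of 7 IVP libraries were above and 1 was below all IVV libraries.

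BMPER binds BMPs outside the cell and can promote or inhibit their signaling. It was low, with at most 24 counts per library, in the ED of IVP embryos (0 to 0.463 CPM, median 0.245, no count in IVPF10 and IVPF13), against 20 to 552 counts in the ED of IVV embryos (0.401 to 8.43 CPM, median 4.07). BMPER was 16.9-fold lower in IVP ED (log2 fold change -4.08, SE 0.67, adjusted p = 0.000668). In 5 of the 7 IVP libraries the level was below all IVV libraries, and VE19, at 0.401 CPM, was the IVV embryo within the IVP range.

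The ID genes encode helix-loop-helix proteins that bind E proteins and keep them from DNA. ID1 was at 2.16 to 14.1 CPM (median 6.44) in the ED of IVP embryos and at 22.7 to 70.4 CPM (median 48.2) in that of IVV embryos, and was 7.12-fold lower in IVP (log2 fold change -2.83, SE 0.35, adjusted p = 3.13e-05). The groups did not overlap, and VE19, which was near the IVP embryos for BMPER, was within the IVV range at 48.7 CPM. ID4 was at 0.848 to 8.61 CPM (median 2.13) and 5.89 to 27.1 CPM (median 16.7), a 5.66-fold lower level in IVP (log2 fold change -2.50, SE 0.40, adjusted p = 0.000456), with 5 of 7 IVP libraries below all IVV libraries.

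ID2 was fitted 1.73-fold lower in IVP and did not pass the test (log2 fold change -0.79, SE 0.27, adjusted p = 0.0947, and 0.0382 with 2 surrogate variables). Its ED levels were 37.7 to 73.5 CPM (median 52.8) in IVP and 54.3 to 194 CPM (median 77.5) in IVV embryos, and 4 of 7 IVP libraries lay below all IVV libraries.

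MSX1 and MSX2 encode homeodomain repressors induced by BMPs in many embryonic tissues. In the ED, MSX1 was at 3.19 to 11.9 CPM (median 4.99) in IVP and 10.5 to 31.5 CPM (median 23.6) in IVV embryos, and was 3.88-fold lower in IVP (log2 fold change -1.96, SE 0.30, adjusted p = 0.000369). All but 1 of the 7 IVP libraries were below all IVV libraries. MSX2 was at 5.75 to 26.5 CPM (median 19.0) and 27.6 to 46.4 CPM (median 34.6), without overlap, and was 2.34-fold lower in IVP (log2 fold change -1.23, SE 0.23, adjusted p = 0.00223).

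Markers of the primitive streak and mesoderm moved with these 6 genes. Of the 10 listed, 9 were tested and 8 were lower in the ED of IVP embryos, and their summed level was 7.89 to 18.8 CPM in IVP and 33.7 to 163 CPM in IVV embryos, with none at the floor of 3 counts in either group. Of 7 epiblast markers, 4 were tested and all were fitted lower, of which POU5F1 passed (16.5 to 39.3 CPM in IVP and 27.1 to 227 CPM in IVV, log2 fold change -1.71, adjusted p = 0.00646). The summed level of the 7 was 142 to 402 CPM in IVP and 115 to 766 CPM in IVV embryos. At the floor were 3 of them in IVP (SOX2, UTF1 and FGF4) and 2 in IVV (SOX2 and UTF1). Of 10 trophoblast markers, 9 were fitted higher and none passed, with 3870 to 24500 CPM in IVP and 10000 to 20500 CPM in IVV embryos. The part of these cells in the differences above was not tested. XIST, the RNA that coats the inactive X chromosome, was at 0 to 0.297 CPM in all 7 IVP ED, at 0.0154 and 0.0165 CPM in the ED of the IVV embryos VE5 and VE3, and at 44.9 to 151 CPM in the other 7 IVV ED, so a high XIST level and the procedure nearly coincide and cannot be fully told apart. In VE3 and VE5 all 6 genes were above every IVP ED, for example ID1 at 30.9 and 63.9 CPM and MSX1 at 22.1 and 24.5 CPM. The 6 genes were called in these same libraries for lower IVP levels, so this describes these embryos and tests no cause. With XIST as a covariate MSX2 did not pass (log2 fold change -0.94, adjusted p = 0.0637), while the other 5 calls were kept. No call among the 6 was lost when any 1 embryo was left out.

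**Figure D2:**
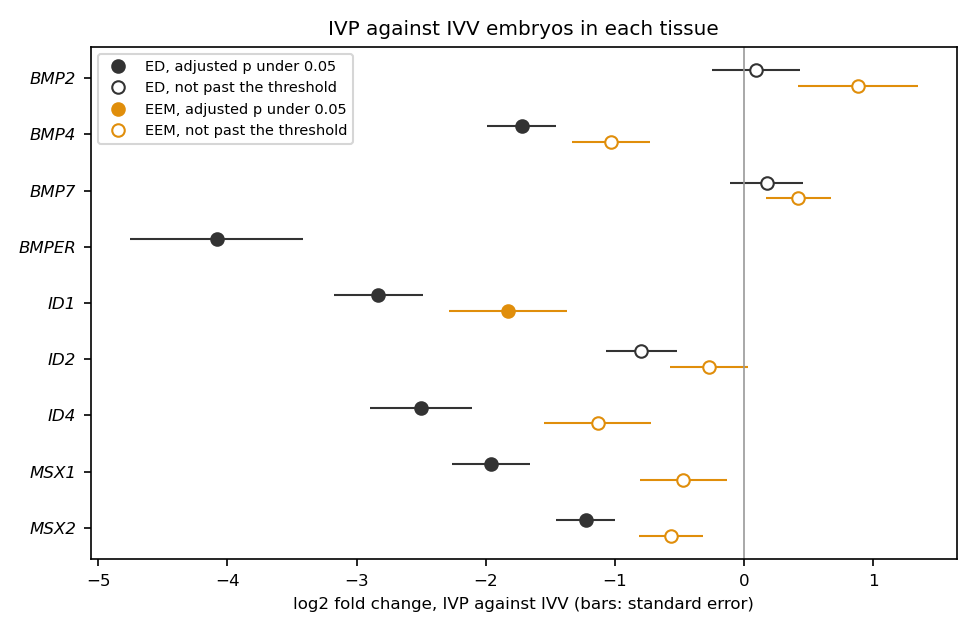
Log2 fold change of IVP against IVV embryos in the ED (black) and the EEM (orange) for each gene tested, with the standard error as a bar. Filled points passed the adjusted p threshold of 0.05. The 6 filled ED points lie between -4.08 and -1.23, and ID1 at -1.83 is the only filled EEM point. BMPER was under the count filter of the EEM and has no orange point.

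In the EEM, 1 of the 8 genes tested passed, ID1, beside 1.37% of all genes lower, 1.94% higher and 3.32% in either direction. ID1 was at 1.34 to 8.90 CPM (median 3.95) in IVP and 4.501 to 35.6 CPM (median 14.8) in IVV embryos, and was 3.54-fold lower in IVP (log2 fold change -1.83, SE 0.46, adjusted p = 0.0262). In 3 of the 6 IVP libraries it was below all IVV libraries. The call was lost with XIST as a covariate (log2 fold change -1.71, adjusted p = 0.239), with a term for the letter that ends the sample title, A or C, which the labels do not explain (-1.65, 0.0744), and without IVP11, IVP14, IVPF9, VE26, VE28 or VE4, where the adjusted p was between 0.0504 and 0.0799.

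BMP4 was lower in every EEM library of IVP embryos (3.08 to 13.7 CPM, median 10.1) than in any of IVV embryos (14.6 to 33.4 CPM, median 17.1), a separation shown by 0.374% of all genes. It did not pass the test across genes (log2 fold change -1.03, SE 0.30, adjusted p = 0.0688). It passed in 3 of 9 alternatives, with DESeq2 (0.015), no filter (0.0424) and no surrogate variable (0.0403), and the highest adjusted p of the 9 was 0.545. With 1 embryo left out it passed in 1 of 14 fits, without IVP14 (0.0381). ID4 had a log2 fold change of -1.13 (SE 0.41, adjusted p = 0.169, and 0.0341 with 2 surrogate variables) and 3 of 6 IVP libraries below all IVV libraries. It was at 1.42 to 8.84 CPM (median 4.32) in IVP and at 3.59 to 19.8 CPM (median 8.68) in IVV embryos.

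The EEM of both procedures overlapped for the remaining genes. MSX1 was at 1.28 to 2.94 CPM in IVP and 1.22 to 5.80 CPM in IVV (adjusted p = 0.667), and MSX2 at 12.03 to 36.4 and 16.2 to 40.5 CPM (adjusted p = 0.3). ID2 was at 40.8 to 94.4 CPM and 32 to 152 CPM (adjusted p = 0.864). BMP2 and BMP7 were fitted higher, BMP2 with a log2 fold change of 0.88 (SE 0.46, adjusted p = 0.437) and BMP7 of 0.42 (SE 0.25, adjusted p = 0.548). The EEM of VE19 was at 0.595 CPM for BMP2, lower than any other library of either tissue, and the median of the IVV EEM was 12.9 CPM.

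BMPER was nearly absent from the EEM. All 8 IVV libraries held at most 1 count of it, and of the IVP libraries IVP11 held 48 counts (0.940 CPM), IVPF14 held 45 (0.902 CPM) and the other 4 held at most 1. Of the disc genes in these 2 pieces, TBXT and EOMES had no count, NANOG had 0 and 2 counts, POU5F1 was at 2.43 CPM in IVP11, the highest of the EEM libraries, and at 1.503 CPM in IVPF14, and the mesoderm gene KDR was at 0.294 CPM, also the highest, in IVP11 and at 0 in IVPF14. The difference of the group means was 1.45 on the log2 CPM scale (exact permutation test, two-sided, p = 0.114, where the smallest possible p is 0.000666).

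Immediate early genes, which respond within minutes to handling and to growth factors, also differed between procedures. In the EEM, 9 of 13 were lower in IVP, with a summed level of 725 to 2310 CPM against 2350 to 6800 CPM, and in the ED 3 of 13 were lower, with 555 to 2190 CPM against 1490 to 5830 CPM. None was at the floor, and the highest sum in each tissue was that of VE19. Their part in the values of the ID genes was not tested.

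ED and EEM of the same embryo were then compared, with the embryo as a block. In IVV embryos, 5 of 9 genes were higher in the ED (BMP2, BMPER, ID1, ID4 and MSX1) and BMP7 was lower. Of all genes tested, 15.6% were higher in the ED, 6.55% were lower and 22.1% were called in all. BMP4, ID2 and MSX2 did not pass (adjusted p = 0.177, 0.384 and 0.422). In the same fit, 5 of 5 epiblast and 8 of 10 mesoderm markers tested were higher in the ED of IVV embryos. Lower in the ED were 4 of 10 trophoblast markers and 4 of 13 immediate early genes. Their part in these differences was not tested.

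**Figure D3:**
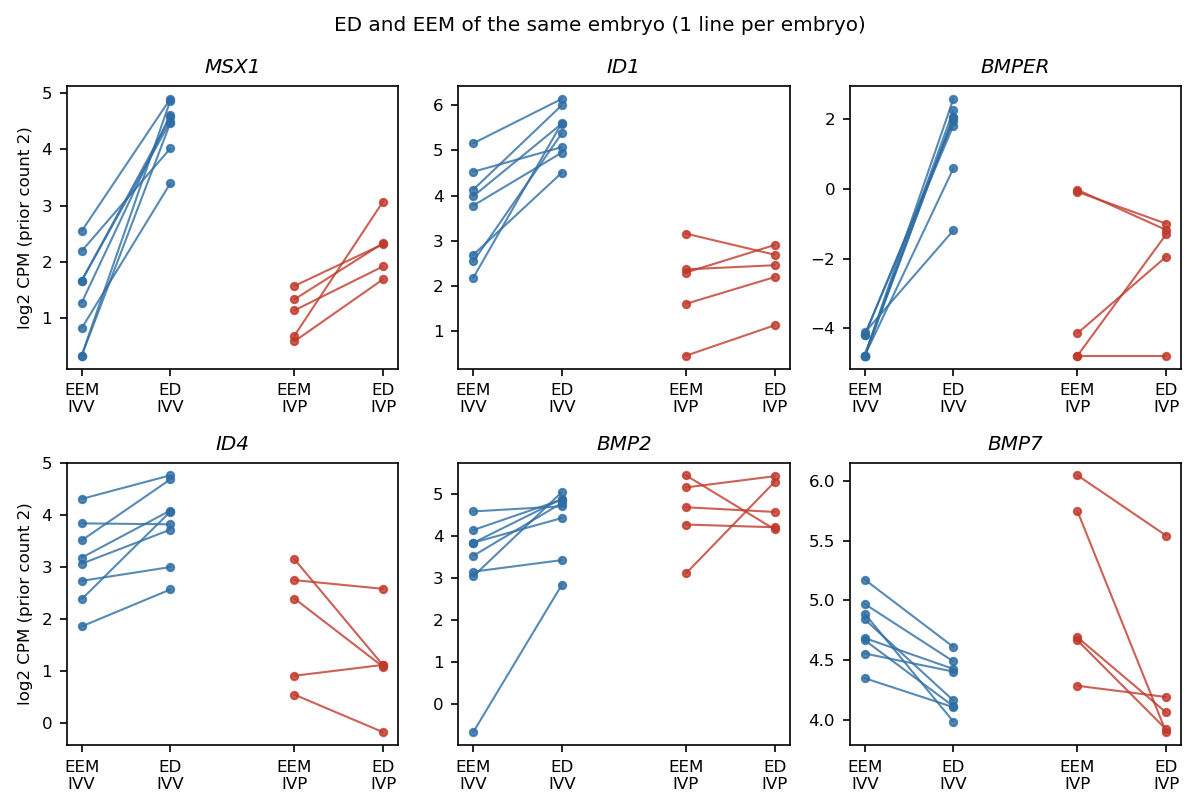
Level of 6 genes in the EEM and ED of the same embryo (log2 CPM, prior count 2), with 1 line per embryo, 8 IVV (blue) and 5 IVP (red). MSX1 rises from EEM to ED in all 13 embryos and BMP7 falls in all 13, whereas ID1 and BMPER rise in every IVV embryo but not in every IVP embryo.

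BMPER separated the tissues of IVV embryos most widely. The 8 ED libraries together held 1726 counts and the 8 EEM libraries 3 counts, a ratio of 494 after scaling to normalized library sizes (95% exact interval 169 to 2400, which covers counting error only and is too narrow if both mates of a pair were counted). The test of the fitted difference gave an adjusted p of 1.68e-07. The ED was above the EEM in 8 of 8 embryos, as it was for MSX1, ID1 and BMP2, a pattern that 12.2% of all genes showed.

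MSX1 was 8.34-fold higher in the ED than in the EEM of IVV embryos (log2 fold change 3.06, SE 0.27, adjusted p = 1.05e-07). ID1 was 3.42-fold higher (log2 fold change 1.77, SE 0.25, adjusted p = 2.72e-05). BMP2 was 2.18-fold higher (log2 fold change 1.12, SE 0.33, adjusted p = 0.0177). For these 3 the smallest difference within an embryo was 1.82, 0.54 and 0.12 on the log2 CPM scale.

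ID4 was 1.67-fold higher in the ED of IVV embryos (log2 fold change 0.74, SE 0.22, adjusted p = 0.0192), in 7 of 8 embryos. BMP7 was 1.39-fold lower in the ED (log2 fold change -0.47, SE 0.15, adjusted p = 0.0321) in 8 of 8 embryos, as for 6.54% of all genes. Without the embryo block, BMP2, BMP7 and ID4 were not called (adjusted p = 0.16, 0.286 and 0.297). These smaller differences also depended on single embryos: BMP2 was lost without VE29 (0.0607), ID4 without VE29 or VE5 (0.0671 and 0.0616), and BMP7 without VE26, VE28, VE29, VE3 or VE4 (0.0642 to 0.0891).

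In IVP embryos, 2 of 9 genes differed between ED and EEM, beside 4.18% of all genes higher in the ED, 0.649% lower and 4.83% in all. MSX1 was 2.25-fold higher in the ED (log2 fold change 1.17, SE 0.33, adjusted p = 0.0442) in 5 of 5 embryos, as for 9.01% of all genes. BMP7 was 1.73-fold lower in the ED (log2 fold change -0.79, SE 0.20, adjusted p = 0.0198) in 5 of 5 embryos, as for 4.41%. Without the embryo block, neither passed in the same 26 libraries (adjusted p = 0.072 for MSX1 and 0.227 for BMP7), whereas in all 30 libraries MSX1 passed (0.000822) and BMP7 did not (0.249). The MSX1 call was lost without IVP10, IVP11, IVP14, IVPF13, IVPF14 or VE26 (adjusted p 0.053 to 0.224) and the BMP7 call without IVP11, IVPF13 or IVPF14 (0.054 to 0.105). Without IVP11 and IVPF14 together both were lost (0.0821 for MSX1 and 0.106 for BMP7).

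ID1 and ID4 did not pass between the tissues of IVP embryos. ID1 had a log2 fold change of 0.26 (SE 0.31, adjusted p = 0.741), with the ED higher in 4 of 5 embryos, and ID4 one of -0.85 (SE 0.29, adjusted p = 0.111, and 0.0494 without IVP11), with the ED lower in 4 of 5. MSX2 was called lower in the ED only without IVP10 (0.0257). BMPER had a log2 fold change of 0.48 (adjusted p = 0.806). This value rested on IVP11 and IVPF14, the 2 embryos with more BMPER in the EEM than in the ED. Without both, an exclusion chosen on these values and so no test of the direction, it was 4.47 (adjusted p = 0.0316) in the other 3 embryos, whose ED held 12, 23 and 0 counts.

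The difference between the tissue effects of the procedures, (ED minus EEM in IVP) minus (ED minus EEM in IVV), was tested in the same model. It was negative for all 9 genes and passed for BMPER (-7.95, SE 1.28, adjusted p = 0.0035), MSX1 (-1.89, SE 0.42, adjusted p = 0.0322) and ID4 (-1.59, SE 0.36, adjusted p = 0.0382). BMPER was under the count filter in the EEM, with at most 1 count in each IVV library and 48 and 45 counts in IVP11 and IVPF14. Its value was therefore fitted against a floor, and its size is uncertain. Of all genes, 0.918% passed with a negative sign, 0.107% with a positive sign and 1.02% in all. ID1 did not pass (-1.51, SE 0.40, adjusted p = 0.078), nor did MSX2 (-0.70, SE 0.27, adjusted p = 0.305) or BMP2 (-0.99, SE 0.53, adjusted p = 0.552). For ID1, 2 of 7 alternatives passed (0.0134 with DESeq2 and 0.0163 with no filter), over a range of -1.66 to -0.77. Of 13 fits with 1 embryo left out, 1 passed (0.0311 without VE4), and the highest adjusted p was 0.19.

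None of the 3 interaction calls was held without IVP11 and IVPF14 together, where 3 IVP embryos were left and the calls over all genes went from 172 to 54. BMPER was then at -3.95 (adjusted p = 0.631), MSX1 at -1.59 (0.262) and ID4 at -1.88 (0.0601). Of single embryos, leaving out IVP10, IVP11, IVPF13, IVPF14, VE26, VE29, VE3 or VE5 ended the MSX1 call (0.0557 to 0.0976), and IVP10, IVPF13, IVPF14, VE19, VE26, VE28, VE29 or VE5 the ID4 call (0.053 to 0.105). Without the embryo block MSX1 and ID4 did not pass.

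Beyond the 10 genes, 65 further genes of the pathway were listed by role, also with earlier results of these data known. Their shares below are a description. In the ED, 48 were tested, of which 8 were lower (16.7%, beside 4.67% of all genes) and 1 was higher (2.08%, beside 1.26%) in IVP embryos. The ligands and receptors had none of these calls: 0 of 5 other ligands and 0 of 10 receptors and coreceptors passed. The ligand BMP6 was near the threshold (log2 fold change -1.45, adjusted p = 0.0587). It was called in 4 of 9 alternatives (2 surrogate variables, DESeq2, no filter or halved counts, 0.0282 to 0.0489), and the highest adjusted p of the 9 was 0.828. With 1 embryo left out it was called in 5 of 16 fits (without IVP14, IVPF15, VE24, VE4 or VE5, 0.00757 to 0.0443). The coreceptor RGMA was called in 1 of 9 alternatives, with XIST as a covariate (0.0394). Among receptors, ACVR2B and ACVR1, which bind activins and BMPs, and ACVRL1, a type I receptor of endothelial cells, were picked by mean CPM over all 30 libraries, with no correction for length. Their median levels in the ED were 25.2, 23.2 and 18.5 CPM in IVP and 25.4, 24.2 and 16.5 CPM in IVV embryos.

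Of the 8 intracellular SMADs and SMURFs, 3 were lower in IVP ED (37.5%). SMAD9, a receptor-activated SMAD that BMPs also induce, was at 0.292 to 0.946 CPM in IVP and 0.581 to 4.34 CPM in IVV embryos (log2 fold change -2.15, adjusted p = 0.00308). The inhibitory SMAD6 was at 3.14 to 11.9 and 8.02 to 26.1 CPM (log2 fold change -1.43, adjusted p = 0.00708), and SMAD7 at 6.64 to 21.2 and 14.01 to 39.3 CPM (log2 fold change -1.35, adjusted p = 0.00286). The groups overlapped for all 3, and SMAD6 was not called with XIST as a covariate (adjusted p = 0.101) or among the libraries of letter C (0.0523).

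Of 11 other targets, 5 were lower in IVP ED (45.5%). ATOH8, a helix-loop-helix factor, was at 0 to 0.241 CPM in IVP and 0.431 to 1.16 CPM in IVV embryos (log2 fold change -3.02, adjusted p = 0.00246), and the homeobox gene DLX2 at 0 to 2.01 and 0.641 to 8.09 CPM (-2.98, adjusted p = 0.00595). HEY1, which Notch also induces, had a log2 fold change of -1.89 (adjusted p = 0.00251), and ZNF423, a zinc finger partner of SMADs, one of -1.84 (adjusted p = 0.00706). BAMBI, a decoy receptor induced by BMPs, was at -1.04 (adjusted p = 0.0403) and was not called without IVP10, IVP11, IVPF10, IVPF13, IVPF14, VE26, VE28, VE29 or VE6 (0.0579 to 0.0894), nor with no surrogate variable (0.106), with the letter as a term (0.0641), among the libraries of letter C (0.117) or with XIST as a covariate (0.646). HAND1, a helix-loop-helix factor of extraembryonic mesoderm and heart, did not pass (3.28 to 45.0 CPM in IVP and 11.99 to 93.8 CPM in IVV embryos, log2 fold change -1.45, adjusted p = 0.0749). It passed in 3 of 9 alternatives, with 2 surrogate variables (0.00508), no filter (0.0474) or the letter as a term (0.0155), and the highest adjusted p of the 9 was 0.763. With 1 embryo left out it passed in 5 of 16 fits, without IVP10, IVP11, IVPF15, VE19 or VE3 (0.035 to 0.0495).

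Among 14 extracellular antagonists and proteases tested in the ED, only VWC2 passed, with 10 to 36 counts per library in IVP and 2 to 13 in IVV embryos (log2 fold change 1.96, adjusted p = 0.00884, with 0.0703 without IVP11, and 2.401 and 0.0563 with XIST as a covariate). GREM1, with 0 to 5 counts in IVP and 0 to 53 in IVV ED, was under the count filter, and with no filter it was called lower in IVP (-3.96, adjusted p = 0.00774). The antagonists FST, CRIM1 and FSTL3, picked in the same way, had medians of 86.9, 27.7 and 32.5 CPM in IVP and of 99.3, 37.0 and 29.6 CPM in IVV ED. In the EEM, 2 of 41 passed, 1 in each direction (2.44% each, beside 1.37% of all genes lower and 1.94% higher), a share near that of all genes. HEY1 was lower (1.26 to 4.13 against 1.78 to 12.02 CPM, log2 fold change -1.63, adjusted p = 0.0161), and the antagonist NBL1 was higher (0.591 to 2.19 against 0.394 to 0.826 CPM, 1.35, adjusted p = 0.0208), though not without IVP11, IVP14 or VE3 (0.0545 to 0.0553), among the libraries of letter C (1.34, 0.245) or with XIST as a covariate (1.64, 0.202). HEY1 was at -1.50 (0.0514) with the letter as a term. GDF3 was called higher in the EEM of IVP embryos with no filter and without IVP10 or IVPF13 (0.0211 to 0.042), and FSTL1 without VE28 (0.0326).

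**Figure D4:**
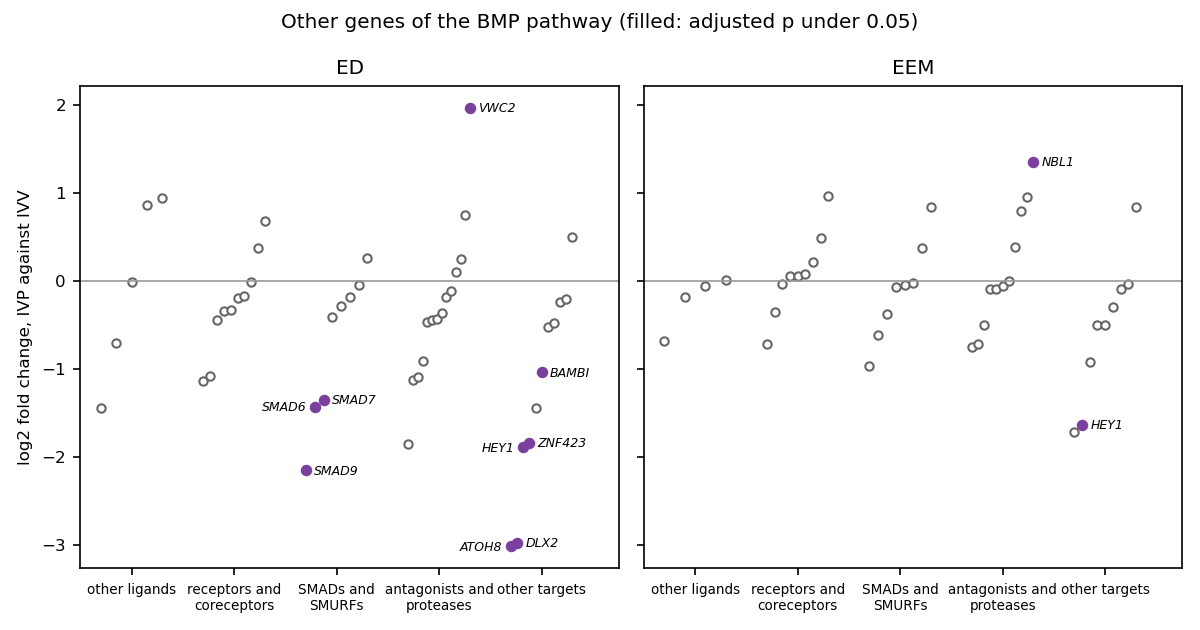
Log2 fold change of IVP against IVV embryos for the other pathway genes tested, 48 in the ED (left) and 41 in the EEM (right), grouped by role and ordered by value. Filled points with names passed the adjusted p threshold of 0.05. The filled points below 0 in the ED are 3 SMADs and 5 targets.

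Between the tissues of IVV embryos, 22 of the 51 other pathway genes tested were higher in the ED (43.1%, beside 15.6% of all genes) and 1 was lower (1.96%, beside 6.55%). The ligand GDF3 was at 0.194 to 25.0 CPM in the ED and at most 0.743 CPM in the EEM of IVV embryos (adjusted p = 2.28e-08), and BMP6 at 3.90 to 73.3 and 0.558 to 5.42 CPM (adjusted p = 3.58e-07). SMAD6 was 3.22 higher on the log2 scale, SMAD9 2.43, SMAD7 1.47 and SMAD5 0.60, of which SMAD5 was not called without VE29 (adjusted p = 0.0518) or without the embryo block (0.12). Of the antagonists CER1, FSTL1, NBL1, SOSTDC1 and GREM1 were higher in the ED, GREM1 not with DESeq2 (adjusted p = 0.238), and FST was higher (adjusted p = 0.0496) but not without IVP14, IVPF14, VE19, VE24, VE26, VE28, VE29, VE3 or VE5 (0.0508 to 0.123) or the embryo block (0.367). Of 10 receptors and coreceptors 4 were higher: RGMA by 5.10 on the log2 scale, ENG by 1.38, ACVR2B by 0.84 and ACVR1 by 0.49, of which ACVR1 was not called without the embryo block (0.325) or without VE19, VE28, VE29 or VE5 (0.0564 to 0.0974), and ENG not without VE26 or VE5 (0.0752 and 0.0823). Of 11 other targets 6 were higher: ZNF423 by 6.4997, HAND1 by 2.86, ATOH8 by 2.66, DLX2 by 2.22, BAMBI by 1.11 and TBX3 by 0.55, of which TBX3 was not called without the embryo block (0.211) or without VE19, VE26, VE29 or VE4 (0.05 to 0.094). DLX5 was the 1 target that was lower (log2 fold change -1.07, adjusted p = 0.000446, and 0.124 without the embryo block).

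In IVP embryos, 6 of the 51 passed (11.8%, beside 4.18% of all genes higher), all higher in the ED: GDF3, BMP6, CER1, ZNF423, the coreceptor RGMA and SMAD9. The SMAD9 call (log2 fold change 1.74, adjusted p = 0.0437) was lost without IVP10, IVP11, IVPF13, IVPF14, VE24, VE28 or VE3 (0.0521 to 0.189), without the embryo block (0.0626) and without IVP11 and IVPF14 together (0.107), while the other 5 were called whichever embryo was left out. FSTL1 was called higher in the ED with DESeq2, with no filter and without VE24 or VE29 (0.0153 to 0.0348), and HAND1 without IVPF13 (0.0306). The interaction passed for SMAD6 (-2.47, SE 0.58, adjusted p = 0.0443) and for NBL1 (-1.99, SE 0.47, adjusted p = 0.0433), and both calls were lost without the embryo block in the same libraries (0.0748 and 0.0705) and without IVP11 and IVPF14 together. In all 30 libraries without the block SMAD6 passed (0.0324) and NBL1 did not (0.0891). They were also lost without IVP10, IVP14, IVPF13, IVPF14, VE28, VE29 or VE3 alone (0.0615 to 0.125), SMAD6 also without VE26 (0.0704) and NBL1 without IVP11 or VE5 (0.0564 and 0.0729). SMAD7 passed only with DESeq2 (0.0123), no filter (0.0417) or without VE4 (0.0204).

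The genes whose levels followed each member most closely over all 30 libraries were found by Pearson's r of log2 CPM among 14309 genes. The libraries share tissue, procedure and embryo, so these values are a description. MSX1 was closest to MCHR1 (r = 0.933), ID1 to NOTUM (0.895), BMP7 to PMP22 (0.886) and BMPER to UNC5C (0.881). ID4 was closest to ID1 (0.881), and for ID1 the next in order were ID4 and ATOH8 (0.869). BMP2 was closest to CLMN (0.858), MSX2 to ZNF2 (0.826), BMP4 to TST (0.815) and ID2 to RBM7 (0.733).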

How the data were processed

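RNA was extracted from pieces of ED and EEM, and non-stranded poly(A) libraries were sequenced as paired reads. Reads were filtered with SOAPnuke, aligned with STAR 2.7.0b to ARS-UCD1.3 and counted per gene with featureCounts (Subread 2.0.3). The deposited values are raw counts for 35092 Entrez gene IDs in 30 libraries, made by the authors without normalization. Since strand was not kept, reads of a gene and of an overlapping or antisense gene cannot be told apart. Whether each mate of a pair was counted on its own is not given in the sources used here. Among small counts the even ones were more frequent than their odd neighbours (19289 entries of 2, against 15257 of 1 and 13344 of 3), so halved counts were an alternative. Gene IDs were matched to symbols through RefSeq's ARS-UCD2.0 annotation (31630 IDs, 99.5% of counts), whose positions belong to another assembly and were left aside.

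The 10 genes, the pathway lists and the markers were chosen with earlier results of these data known. Each tissue was analyzed in R 4.3.3 with edgeR 4.0.16: TMM normalization, filterByExpr with at least 10 counts, 1 surrogate variable from svaseq (sva 3.50.0) and quasi-likelihood F tests, with Benjamini-Hochberg adjusted p-values over all genes tested called under 0.05. The 26 libraries of the 13 embryos with both tissues were fitted with the embryo as a block, a tissue effect per procedure and their difference. Sample titles give the embryo, and the deviations of its ED and EEM from their group means correlated between -0.19 and 0.639, above 0.1 in 12 of 13. BMPER, under the count filter in the EEM, had an exact permutation test. CPM used TMM factors over all 30 libraries, and log2 CPM a prior count of 2. A group was at the floor when no library held more than 3 counts. The libraries of a group came from separate embryos, whose dams and recipients could not be told from the labels.

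Named genes were all 10 members and, per list and comparison, at most 6 other pathway genes that passed, by smallest p, up to 3 receptors and antagonists with the highest mean CPM over all 30 libraries, and the gene closest to each member by r. ID4 and ATOH8 as next closest to ID1, XIST and the check genes were named after their values were seen. So were BMP6, RGMA, HAND1, GREM1, GDF3, FSTL1 and SMAD7 in comparisons they did not pass, because an alternative or a fit without an embryo called them. Alternatives were 0 or 2 surrogate variables, DESeq2 1.42.0, RLE normalization, no count filter, halved counts, the letter (A or C) that ends the title as a term or C only, XIST as a covariate, no embryo block, all 30 libraries, and each embryo left out. Leaving out IVP11 and IVPF14 together was added after seeing the data. The fitting code was also run on simulated counts with known changes and no embryo effect, as a check of the code only. No sequences of the members were used here.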

Additional observations from a re-analysis of the deposited data

Results flagged for a closer look

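Among 36 sets of libraries, each 1 gene in 1 group, 1 set held a library far from the rest, and chance gives such a library in about 1 in 20 sets. It was BMP2 in the EEM of the IVV embryo VE19, at -0.66 log2 CPM (0.595 CPM) against 3.04 in the nearest IVV library, a gap of 0.706 of the whole range of the group. The 3 genes with an IVP effect that differed between ED and EEM, by the test of the difference itself, were BMPER at -7.95, MSX1 at -1.89 and ID4 at -1.59 on the log2 scale. The value of BMPER was fitted against a floor in the EEM. Without IVP11 and IVPF14 together none of the 3 passed, with BMPER at -3.95, MSX1 at -1.59 and ID4 at -1.88, and 54 genes in place of 172 were called in all.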

How the results depend on the processing

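The number of the 10 genes called in the ED was 6, and was 5 to 7 under the alternatives and 6 whenever 1 embryo was left out: MSX2 was lost with XIST as a covariate (adjusted p = 0.0637) and ID2 was gained with 2 surrogate variables (0.0382). In the EEM, 1 was called. The count was 2 with no surrogate variable, 2 with 2 surrogate variables, 2 with DESeq2, 3 with no count filter, 0 with the letter as a term, 0 with XIST as a covariate, and 0 to 1 with 1 embryo left out. Without the filter BMPER was called in the EEM (5.11, adjusted p = 0.0123), on the counts of IVP11 and IVPF14. Between ED and EEM of IVV embryos 6 were called, 3 with no replicate block, 3 in all 30 libraries without the block, and 3 to 6 with 1 embryo left out, with 3 without VE29. In IVP embryos 2 were called, 0 with no replicate block, 1 in all 30 libraries, 1 without IVP11 and IVPF14 together (an alternative chosen after seeing the data, where MSX1 and BMP7 were lost and BMPER was gained), and 0 to 2 with 1 embryo left out. For the interaction 3 were called, 1 with no replicate block, 1 in all 30 libraries, 0 without IVP11 and IVPF14 together, and 1 to 4 with 1 embryo left out. No direction of a called value was reversed. Of the counts over all genes, that in the ED was 933 and rose to 1479 with DESeq2 and 1641 with no filter, and was 569 without VE29 and 616 without VE5. That in the EEM was 488, with 769 under DESeq2, 964 with no filter, 279 for the letter C only and 134 with XIST as a covariate. That between the tissues of IVV embryos was 3711, with 2268 with no replicate block and 2349 in all 30 libraries, and that of IVP embryos was 810, with 473 without IVP14. The interaction gave 172 genes, 435 with DESeq2, 356 with no filter, 301 in all 30 libraries, 54 without IVP11 and IVPF14, and 109, 109, 104 and 101 without IVP10, IVPF14, VE28 and VE29. Of the other pathway genes, 2 were called in the EEM, with 4 under DESeq2, with no filter and without IVPF13, and 1 with either the letter as a term, the letter C only, XIST, or without IVP14 or VE3. In the ED 9 were called, and 7 to 13 under the alternatives. For the interaction 2 were called, and 0 to 3 under the alternatives. The causes of these changes were not tested.

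By the letter that ends the title, the ED differences (IVP minus IVV, mean log2 CPM) of the 6 genes called were -0.85 to -3.36 among the A libraries (2 against 2) and -1.25 to -4.27 among the C libraries (5 against 7). In the EEM, ID1 was at -1.32 (3 against 2) and -1.75 (3 against 6). Counts limited BMPER, which had under 50 counts in each EEM library and in each ED library of IVP embryos.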
